A study of Mus musculus with 39 samples.

Results

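Chemokine ligands were taken as every gene whose symbol begins with Ccl, Cxcl, Cx3cl or Xcl followed by a digit. This rule, which uses no measured value, found 39 of 24537 genes in the table of kidney, liver and lung and 41 of 52508 in the table of skin. All 39 symbols of the first table recur in the second, whose 2 further symbols are the pseudogenes Ccl19-ps1 and Ccl19-ps3. RNA of whole perfused tissue was read by a bulk form of MARS-seq, which counts the 3′ ends of transcripts, in 39 libraries. Every mouse was C57BL/6 and Prf1-/-, lacking perforin, the pore-forming protein of cytotoxic lymphocytes, so that controls and treated animals share this deletion and no wild-type mouse was analysed here. The young group was 3 months old and untreated (n = 4 mice in kidney, liver and lung and 3 in skin). The vehicle group (n = 3 per tissue) and the ABT-737 group (n = 3 per tissue) were 20 months old and had received monthly pairs of intraperitoneal injections, on 2 consecutive days, over 2 months starting at 18 months. ABT-737, given at 25 mg/kg, blocks BCL-2 and related proteins that hold cells back from apoptosis. The vehicle against young comparison thus asks what differs with age, although age and the injections cannot be told apart in it, and the ABT-737 against vehicle comparison asks what differs with the drug in old mice.

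Chemokines are small secreted proteins that bind G protein-coupled receptors on leukocytes and guide their movement, and their names follow the spacing of the first cysteines of the protein. Inflammatory chemokines such as Cxcl10 and Ccl2 are transcribed on demand after interferon or NF-kappa-B signals, whereas homeostatic ones such as Cxcl12 and the Ccl21 genes are made steadily by stroma, endothelium or epithelium and place cells within tissues. In aged and damaged tissue inflammatory chemokines come both from tissue cells, where several belong to the secretory programme of senescent cells, and from infiltrating leukocytes, among which T cells and NK cells make Ccl5.

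Total counts per library lay between 1493411 and 3842808 in skin, 1431814 and 3513311 in kidney, 1046508 and 2600092 in lung and 223957 and 891116 in liver, so that low ligands were least well resolved in liver. Levels are given as CPM, counts per 1000000 of the library size normalized within a tissue. They stand in order of replicate number, which runs from 1 to 4 in young mice (1 to 3 in skin) and from 3 to 5 in vehicle and ABT-737 mice. Folds are log2 differences ± SE from edgeR's quasi-likelihood test, called at a Benjamini-Hochberg adjusted p under 0.05 over all genes tested in the tissue. Each tissue held its own defining markers at high levels, hepatocyte genes for example summing to 64306 to 80133 CPM in young, 48188 to 65668 in vehicle and 71804 to 81130.0 in ABT-737 livers. Several libraries stood apart. Lung ABT-737 replicate 4 held adipocyte markers at 3717 CPM and hepatocyte markers at 821 CPM. Liver vehicle replicate 5 held muscle markers at 65.5 CPM and liver vehicle replicate 3 was the shallowest library. Kidney vehicle replicate 4 was the highest of its group for 11 of the 17 ligands tested, against 36.1% of all genes. It held B cell markers at 93.7 CPM against 8.64 and 9.39 in the other vehicle kidneys, and fibroblast markers at 332.5 against 171 and 137. The part of these markers in its ligand values was not tested. Skin ABT-737 replicate 4 was the lowest of its group for 18 of the 22 ligands tested, against 35.9% of all genes. It held lung epithelium markers, 7 of 7 detected in the group, at 171 CPM against 10.6 and 9.14 in the other ABT-737 skins, and the part of these foreign markers in the ligand values was not tested. In bulk tissue, fewer cells of a type and less RNA per cell cannot be told apart.

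The genes lie mostly in clusters. On mm10, 11 of the 12 members on chromosome 11 fall within a stretch that starts with Ccl2 at 82035577 and ends with Ccl4 at 83664683, and Cxcl9, Cxcl10 and Cxcl11 are neighbours on chromosome 5 between 92321331 and 92363277. The sequences before the start sites of Cxcl9, Cxcl10 and Cxcl14 are shown because the first pair are interferon-induced ligands that rose with age in kidney, liver and lung, and Cxcl14 is the ligand whose change differed between all 3 pairs of these tissues. Each covers 250 bases before the RefSeq start on the minus strand of GRCm38.p6, at chr5:92328080-92328329, chr5:92348890-92349139 and chr13:56296552-56296801, printed 5′ to 3′ with matched motifs in capitals.
Cxcl9: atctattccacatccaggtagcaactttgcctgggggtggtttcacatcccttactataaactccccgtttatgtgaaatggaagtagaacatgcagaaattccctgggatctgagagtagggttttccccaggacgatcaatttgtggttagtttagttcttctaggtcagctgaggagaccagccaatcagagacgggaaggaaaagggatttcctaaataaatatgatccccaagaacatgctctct
Cxcl10: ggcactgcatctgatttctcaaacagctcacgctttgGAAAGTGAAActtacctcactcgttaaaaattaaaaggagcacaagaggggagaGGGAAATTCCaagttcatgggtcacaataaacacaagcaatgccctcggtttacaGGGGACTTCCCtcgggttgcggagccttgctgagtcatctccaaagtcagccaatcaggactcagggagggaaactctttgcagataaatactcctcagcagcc
Cxcl14: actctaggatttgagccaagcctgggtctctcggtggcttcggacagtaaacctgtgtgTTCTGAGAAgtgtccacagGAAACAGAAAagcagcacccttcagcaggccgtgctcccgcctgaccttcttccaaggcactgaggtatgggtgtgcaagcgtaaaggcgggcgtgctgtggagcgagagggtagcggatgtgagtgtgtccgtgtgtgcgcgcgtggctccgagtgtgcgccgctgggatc
Both strands of each promoter, from 250 bases before to 50 after the start, were searched for the interferon-stimulated response element (GAAA, any 2 bases, GAAA), the STAT-binding GAS element TTCNNNGAA and the NF-kappa-B motif. The first was found in 3.44% of 32851 mouse promoters and, among the 34 promoter entries of 28 ligands, in those of Ccl19, Cxcl10 and Cxcl14. The second occurred in 8.3% of all promoters and in Ccl17 and Cxcl14, and the third in 8.46% and in 8 ligands, Ccl1, Ccl9, Ccl20, Ccl27a, Cxcl1, Cxcl2, Cxcl3 and Cxcl10. In Cxcl10 the response element began at -213 and NF-kappa-B matches at -159, -104 and -103, of which the last pair overlap. In Cxcl14 the GAS element began at -191 and the response element at -172. The Cxcl9 window held none of these letters. A match describes the sequence and no binding was measured.

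In young mice the tissues differed in which ligands they expressed. Kidney, liver and lung were scaled and fitted together, where 32 of 39 ligands were tested. Between kidney and liver 9 ligands passed and 6 of them were higher in kidney, against 41.2% of all genes called and 27.6% higher. Between kidney and lung 20 passed and 6 were higher in kidney, against 64.3% and 31.7%. Between liver and lung 21 passed and 8 were higher in liver, against 62.2% and 24.6%. The shares of ligands called, 28.1%, 62.5% and 65.6%, were thus below or near the background. Lung stood out for Cxcl15, or lungkine, a neutrophil attractant of airway epithelium. It lay at 1303 ± 106 CPM (SD, n = 4) in young lung and had 0 counts in all kidney and liver libraries of young mice, at least 1336-fold above kidney and at least 186-fold above liver with 3 counts per library as the floor. Cxcl17, a mucosal epithelial chemokine, was at 74.4 ± 15.2 CPM in lung and had 0 counts in young liver, at least 10.6-fold lower.

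Ccl6, made by macrophages, was 298 ± 44.8 CPM in young lung, 7.47 ± 1.48 in kidney and 15.7 ± 10.3 in liver (log2 -4.21 ± 0.42, edgeR adjusted p = 1.28e-10 for liver minus lung). The Ccr4 ligands Ccl17 and Ccl22, which dendritic cells make to attract T cells, were also highest in lung, with Ccl17 at 23.7 ± 5.98 CPM against 0.385 ± 0.307 in kidney (log2 -5.70 ± 0.73, edgeR adjusted p = 1.83e-08). Cxcl14, an epithelial chemokine, was 309 ± 46.5 CPM in lung, 72.2 ± 2.88 in kidney and 2.86 ± 0.928 in liver, and kidney differed from both others. For kidney minus lung it was log2 -2.10 ± 0.31, edgeR adjusted p = 4.29e-07, and for kidney minus liver log2 4.61 ± 0.60, edgeR adjusted p = 5.98e-08. Cx3cl1, a ligand tethered to endothelial and epithelial membranes, was highest in kidney at 82.3 ± 6.38 CPM, followed by lung at 37.1 ± 8.13 and liver at 0.644 ± 1.29 (kidney minus lung log2 1.14 ± 0.22, edgeR adjusted p = 2.95e-05). Liver led for Ccl9, a macrophage attractant, with 86.2 ± 27.6 CPM against 2.15 ± 1.21 in kidney (log2 -5.24 ± 0.58, edgeR adjusted p = 1.66e-09). It also led for Cxcl1, a neutrophil attractant, with 20.6 ± 3.22 against 1.84 ± 0.858 (log2 -3.47 ± 0.64, edgeR adjusted p = 2.63e-05). Cxcl12, the stromal ligand of Cxcr4, was 207 ± 23.9 CPM in liver and 135 ± 21.5 in kidney, which did not pass (log2 -0.62 ± 0.35, edgeR adjusted p = 0.16). Lung was lower at 30.2 ± 3.10 CPM (log2 2.77 ± 0.38, edgeR adjusted p = 1.06e-07 for liver minus lung).

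**Figure D1:**
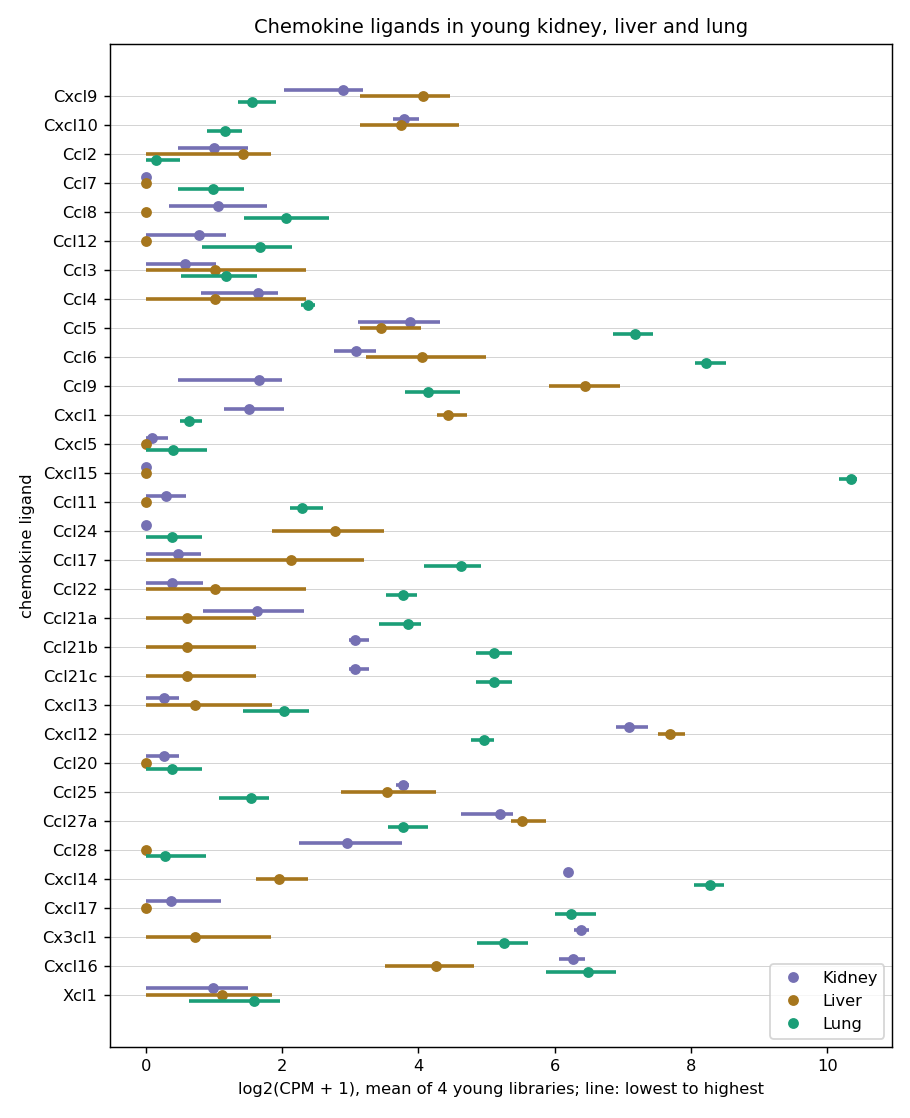
Levels of chemokine ligands in kidney, liver and lung of young mice, as log2(CPM + 1) on the scale common to the 3 tissues. Points are means over libraries (n = 4 per tissue) and lines run from the lowest to the highest library; lung is set apart by Cxcl15 at 1303 ± 106 CPM and by Cxcl17, while liver is lowest for Cx3cl1 and Cxcl14.

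With age, most ligands that changed rose. Of 33 ligands tested in at least 1 tissue, 18 were higher in vehicle than in young mice in at least 1 tissue, 3 were lower, and 12 passed in none. Ccl5 rose in all 4 tissues, and Ccl2, Ccl8, Cxcl9 and Cxcl10 in 3 each. In kidney 8 of the 17 ligands tested rose, against 13.3% of all genes called and 7.75% called higher, and the median over the tested ligands was 0.68 against 0.01 over all genes. In liver 5 of 8 rose (22.6% of all genes called, 11.7% higher, medians 1.57 and 0.02). In lung 14 of 28 rose and 3 fell (12.9% called, 8.15% higher, 4.73% lower, medians 1.61 and 0.04). In skin 8 of 22 rose (11.2% called, 5.84% higher, medians 2.25 and 0.05). The ligands tested are those that passed the filter on low counts, so a ligand counted only in old mice enters already high. Leaving out vehicle replicate 5 left 10 of these calls in lung, and the skin calls rested on the young libraries, with none left without young replicate 1 or 2, 4 without young replicate 3 and 5 without vehicle replicate 5. In the same skins muscle markers, 6 of 6 detected in each group, summed to 49951 to 71393 CPM in young, 7714 to 34538 in vehicle and 12643 to 39056 in ABT-737, and their part in the skin results was not tested.

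With ABT-737 the ligands called were fewer, and each was lower than with vehicle. In kidney Cxcl10 and Ccl5 fell, 2 of 17 against 1.35% of all genes called and 1.21% called lower, and the signs of the tested ligands were negative for 15 (median -0.86, all genes 0.01). In liver Ccl5, Cxcl10 and Cxcl9 fell, 3 of 8 against 3.85% called and 2.85% lower, with 7 of 8 signs negative (medians -1.84 and -0.03). Dropping ABT-737 replicate 4 left 1 liver call, dropping vehicle replicate 4 left 2 and dropping vehicle replicate 3 gave 7. In lung 0 of 28 ligands passed by edgeR where 0% of all genes did, 5 had an unadjusted p under 0.05 (16.1% of all genes) and DESeq2 called 2, Ccl5 and Xcl1 (1.86% of all genes). When the old lungs were paired by replicate number (a replicate block), a pairing the titles do not state, 7 of the 28 fell and 0 rose (7.31% of all genes called, 3.5% lower). In skin 0 of 22 passed by edgeR, again with 0% of all genes, 9 had an unadjusted p under 0.05 (7.97% of all genes) and DESeq2 called 1, Ccl5 (0.2% of all genes). Signs were negative for 18 of 28 ligands in lung and 18 of 22 in skin (medians -0.36 and -1.06, all genes 0.04 and 0.04). The vehicle libraries enter this comparison and the comparison with young mice, so the folds of a ligand in the 2 are not independent.

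**Figure D2:**
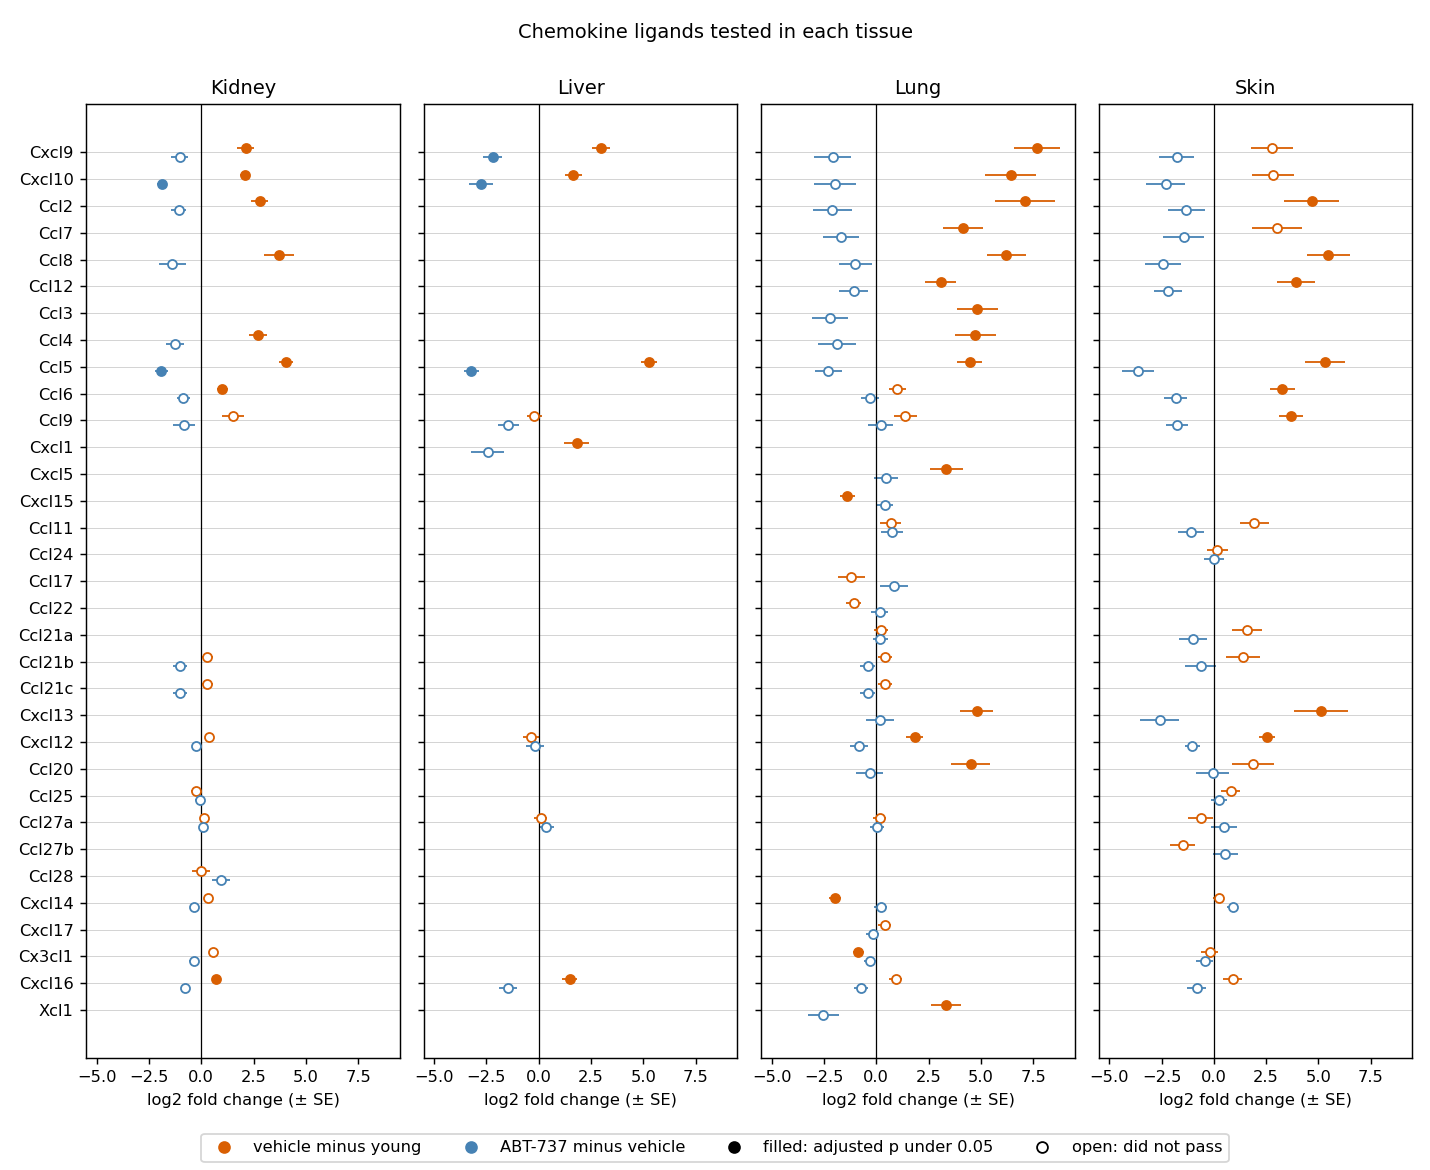
Log2 fold changes of the ligands in each tissue, vehicle minus young in orange and ABT-737 minus vehicle in blue, with bars for the SE and filled points where the edgeR adjusted p was under 0.05. Filled orange points lie to the right of 0 for 14 ligands in lung, 8 each in kidney and skin and 5 in liver, and the filled blue points, 2 in kidney and 3 in liver, lie to the left.

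Cxcl9, Cxcl10 and Cxcl11 are the ligands of Cxcr3, the receptor of activated T cells and NK cells, and are induced by interferon-gamma. In kidney, Cxcl10 was 13.3, 16.5, 14.6 and 12.9 CPM in young, 84.8, 42.4 and 54.9 in vehicle and 12.3, 17.8 and 20.2 in ABT-737 libraries. The vehicle libraries lay above all others, and those of ABT-737 overlapped the young ones (vehicle minus young log2 2.08 ± 0.23, edgeR adjusted p = 1.99e-05, ABT-737 minus vehicle log2 -1.87 ± 0.26, edgeR adjusted p = 0.00113). Cxcl9 in kidney was 3.43, 8.82, 7.32 and 9.23 CPM in young, 20.4, 58.1 and 21.1 in vehicle and 8.73, 13.4 and 24.4 in ABT-737. It rose with age (log2 2.12 ± 0.41, edgeR adjusted p = 0.00243), and ABT-737 replicate 5 lay within the vehicle range (log2 -1.04 ± 0.42, edgeR adjusted p = 0.254). In liver, Cxcl10 was 5.81, 5.96, 16.9 and 7.67 CPM in young, 39.3, 28.1 and 27.0 in vehicle and 3.96, 5.69 and 2.48 in ABT-737 libraries. Cxcl9 was 5.81, 13.4, 15.4 and 11.5 CPM in young, 96.0, 144 and 45.0 in vehicle and 15.9, 13.3 and 32.2 in ABT-737. For both the vehicle livers lay above every other liver. Cxcl10 rose with age (log2 1.66 ± 0.41, edgeR adjusted p = 0.00811) and fell with ABT-737 (log2 -2.76 ± 0.58, edgeR adjusted p = 0.0101). So did Cxcl9 (log2 2.99 ± 0.43, edgeR adjusted p = 0.000161 and log2 -2.21 ± 0.47, edgeR adjusted p = 0.0114). These low liver levels rest on few reads, Cxcl10 having 1, 3 and 1 counts in the ABT-737 libraries. The Cxcl9 call for ABT-737 was lost without ABT-737 replicate 3 or 4 or vehicle replicate 4, the Cxcl10 call without ABT-737 replicate 4 or 5.

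In lung, Cxcl9 went from 1.96, 3.48, 2.17 and 2.08 CPM in young libraries to 231, 273 and 996 in vehicle (log2 7.68 ± 1.10, edgeR adjusted p = 0.00259). Cxcl10 went from 1.47, 2.09, 1.09 and 1.56 to 93.2, 14.6 and 301 (log2 6.43 ± 1.23, edgeR adjusted p = 0.0055). The ABT-737 lungs were uneven, with Cxcl9 at 12.2, 17.9 and 316 and Cxcl10 at 1.93, 5.27 and 90.8. Replicates 3 and 4 lay below every vehicle lung and replicate 5 among them. With all lungs kept, neither ligand passed against vehicle without the replicate block (log2 -2.09 ± 0.89, edgeR adjusted p = 0.267 and log2 -1.98 ± 0.98, edgeR adjusted p = 0.342), while both did with it (edgeR adjusted p = 0.00233 and 0.00764). Once ABT-737 replicate 5 was left out, both passed without the block. In skin, Cxcl10 was 2.89, 2.30 and 3.18 CPM in young, 8.79, 3.20 and 48.0 in vehicle and 1.56, 2.74 and 7.92 in ABT-737 libraries. Cxcl9 was 1.45, 0.575 and 4.55 CPM in young, 10.1, 3.20 and 35.6 in vehicle and 4.93, 1.57 and 7.62 in ABT-737. Vehicle replicate 5 was the highest skin for both, and no comparison passed by edgeR (vehicle minus young log2 2.84 ± 1.02, edgeR adjusted p = 0.0934 and log2 2.79 ± 0.99, edgeR adjusted p = 0.0906). DESeq2 called both for vehicle minus young. Cxcl11 was too low to test in any tissue, with 19 counts in the vehicle lungs together, 4 in ABT-737 lungs and 0 in young ones.

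**Figure D3:**
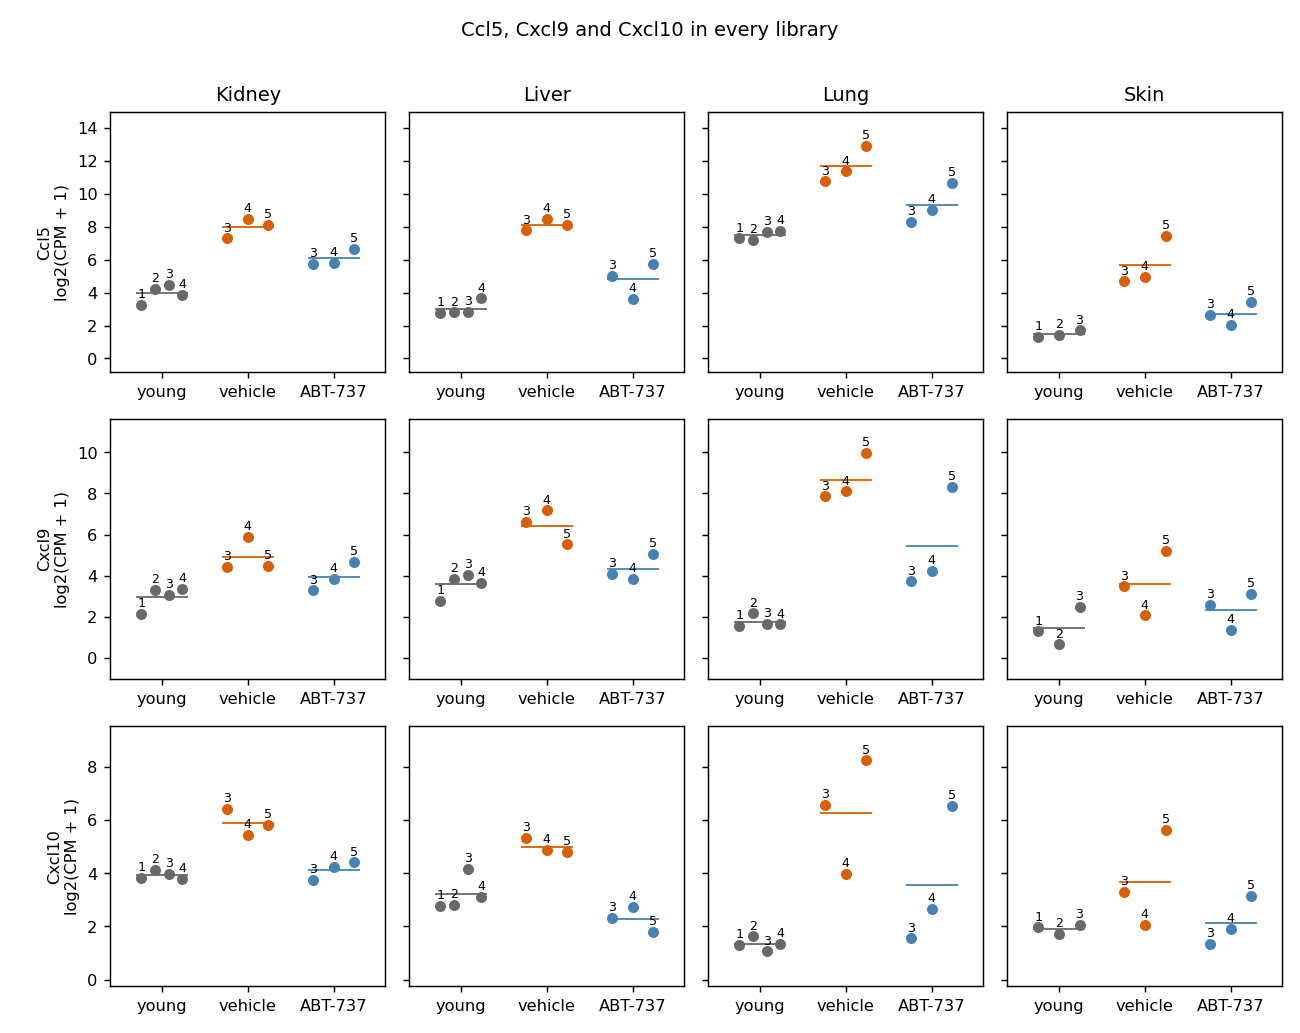
Ccl5, Cxcl9 and Cxcl10 in each library as log2(CPM + 1) by tissue and group, with points numbered by replicate and lines at the group means. In kidney and liver the vehicle points of Ccl5 and Cxcl10 lie above all ABT-737 points, and in lung ABT-737 replicate 5 lies with the vehicle libraries for Cxcl9 and Cxcl10.

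Ccl5, or RANTES, attracts T cells, monocytes and eosinophils. Its kidney values were 8.58, 17.9, 21.1 and 13.4 CPM in young, 156, 359 and 271 in vehicle and 52.9, 54.4 and 101 in ABT-737 libraries. Its liver values were 5.81, 5.96, 6.14 and 11.5 CPM in young, 218, 352 and 275 in vehicle and 31.7, 11.4 and 52.0 in ABT-737. In both tissues every vehicle library lay above every ABT-737 library, and the ABT-737 libraries lay above all young ones in kidney and overlapped them in liver. It rose with age (kidney log2 4.05 ± 0.31, edgeR adjusted p = 8.16e-07, liver log2 5.26 ± 0.39, edgeR adjusted p = 8.45e-07). It fell with ABT-737 (kidney log2 -1.91 ± 0.31, edgeR adjusted p = 0.00422, liver log2 -3.22 ± 0.38, edgeR adjusted p = 0.000205). These calls held with every library left out in turn, 10 of 10 fits in each tissue. Against young mice Ccl5 was still higher in ABT-737 kidney (log2 2.14 ± 0.32, edgeR adjusted p = 0.00207) and liver (log2 2.04 ± 0.52, edgeR adjusted p = 0.022), although the liver call held in 6 of 10 such fits.

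In lung, Ccl5 was 155, 145, 207 and 215 CPM in young, 1712, 2601 and 7619 in vehicle and 310.4, 514 and 1620.0 in ABT-737 libraries. It rose with age (log2 4.46 ± 0.61, edgeR adjusted p = 0.00259), and every ABT-737 lung lay below every vehicle lung. By edgeR over all lungs the drug difference did not pass (log2 -2.29 ± 0.62, edgeR adjusted p = 0.129). It passed when lungs were paired by number (edgeR adjusted p = 0.00127 with the replicate block). Without the block it passed by DESeq2, and by edgeR with ABT-737 replicate 5 left out. In skin it was 1.45, 1.73 and 2.27 CPM in young, 24.6, 29.9 and 173 in vehicle and 5.19, 3.13 and 9.75 in ABT-737, higher with age (log2 5.32 ± 0.95, edgeR adjusted p = 0.0148). All 3 ABT-737 skins lay below the vehicle skins. The difference did not pass by edgeR (log2 -3.64 ± 0.77, edgeR adjusted p = 0.475) but did by DESeq2, and vehicle replicate 5, at 173 CPM, set most of the vehicle spread.

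Ccl3, Ccl4, Ccl6 and Ccl9 are further CC chemokines, made mostly by myeloid cells and activated lymphocytes. Ccl4, or MIP-1 beta, was 2.57, 0.827, 2.93 and 3.23 CPM in young, 13.4, 21.2 and 11.7 in vehicle and 4.62, 3.46 and 10.9 in ABT-737 kidneys. The vehicle kidneys were the highest and it rose with age (log2 2.69 ± 0.43, edgeR adjusted p = 0.000523) without passing between ABT-737 and vehicle (log2 -1.25 ± 0.42, edgeR adjusted p = 0.163). In lung Ccl4 was 4.90, 5.56, 4.88 and 5.72 CPM in young, 78.5, 74.6 and 269 in vehicle and 0.644, 4.22 and 102 in ABT-737. Ccl3, or MIP-1 alpha, was 2.45, 0.695, 0.543 and 2.60 CPM in young, 22.1, 19.7 and 102 in vehicle and 1.93, 0 and 25.5 in ABT-737 lungs. Both rose with age (log2 4.73 ± 0.98, edgeR adjusted p = 0.00762 and log2 4.83 ± 0.97, edgeR adjusted p = 0.00643), with vehicle replicate 5 far above the other vehicle lungs. Ccl6 was 8.15, 8.27, 6.44 and 10.6 CPM in young, 13.0, 23.9 and 14.6 in vehicle and 7.19, 9.90 and 10.4 in ABT-737 kidneys. In skin it was 21.0, 36.8 and 85.1 CPM in young, 215, 745 and 427 in vehicle and 166, 87.0 and 139.9 in ABT-737. It rose with age in both, at log2 1.01 ± 0.27, edgeR adjusted p = 0.0209 in kidney and log2 3.27 ± 0.60, edgeR adjusted p = 0.0162 in skin. Its ABT-737 kidneys lay below all vehicle kidneys, and its ABT-737 skins below all vehicle skins, without passing (edgeR adjusted p = 0.186 and 0.475). The kidney call for Ccl6 was lost without vehicle replicate 4 or young replicate 2 or 3.

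Ccl9 rose with age in skin, from 6.51, 5.75 and 16.8 CPM to 49.7, 196 and 148 (log2 3.71 ± 0.57, edgeR adjusted p = 0.0121), with 49.8, 30.9 and 35.7 in ABT-737 skins. In liver it was 65.8, 89.4, 53.8 and 44.1 CPM in young, 13.1, 49.2 and 83.5 in vehicle and 11.9, 24.7 and 19.8 in ABT-737 libraries. The vehicle livers ran from below to within the young range (log2 -0.21 ± 0.36, edgeR adjusted p = 0.723). The ABT-737 livers all lay below the young ones (log2 -1.66 ± 0.46, edgeR adjusted p = 0.033), a call that held in 4 of 10 fits with a library left out. In lung, Ccl6 and Ccl9 peaked in ABT-737 replicate 4, at 1128 and 142 CPM, the library with adipocyte and hepatocyte markers, whose part in these values was not tested.

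The Ccr2 ligands Ccl2, Ccl7, Ccl8 and Ccl12 draw monocytes from the blood. In kidney, Ccl2 was 0.429, 1.10, 2.05 and 0.923 CPM in young, 9.03, 9.58 and 7.51 in vehicle and 3.08, 3.96 and 5.19 in ABT-737 libraries. Ccl8 was 1.29, 0.551, 0.293 and 2.77 CPM in young, 9.42, 32.8 and 5.16 in vehicle and 1.54, 6.43 and 8.83 in ABT-737. The vehicle kidneys lay above all young ones for both (log2 2.79 ± 0.40, edgeR adjusted p = 0.000173 for Ccl2, log2 3.73 ± 0.73, edgeR adjusted p = 0.00243 for Ccl8). The ABT-737 kidneys lay between for Ccl2 (log2 -1.08 ± 0.37, edgeR adjusted p = 0.173). In lung all 4 rose with age. Ccl8 went from 6.87, 4.17, 2.17 and 2.60 CPM in young to 185, 93.9 and 619 in vehicle (log2 6.21 ± 0.94, edgeR adjusted p = 0.00259) and was 12.9, 114 and 319 in ABT-737 lungs. Ccl2 had 1 count in all young lungs together and 204 in vehicle lungs, a ratio of 228-fold (95% exact counting interval 40.4 to 9028) with edgeR adjusted p = 0.00526. Vehicle replicate 5 alone held 175 of the 204 counts. The interval pools reads over mice and leaves out the spread between them, as do those given below for Cxcl5 and Ccl20. Levels of Ccl2 in the vehicle and ABT-737 lungs, 16.1, 2.14 and 65.5 and 0.644, 5.27 and 12.5 CPM, overlapped.

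Ccl7 in lung was 0.490, 0.695, 2.17 and 1.56 CPM in young, 11.4, 2.14 and 55.4 in vehicle and 2.58, 4.22 and 13.4 in ABT-737 libraries. Ccl12 was 0.981, 4.17, 4.34 and 1.56 CPM in young, 24.8, 8.15 and 36.3 in vehicle and 1.93, 5.27 and 23.3 in ABT-737. Both were highest in vehicle replicate 5 (log2 4.17 ± 0.96, edgeR adjusted p = 0.0119 and log2 3.08 ± 0.74, edgeR adjusted p = 0.0152 for vehicle minus young), and without that library neither passed, nor did Ccl12 without young replicate 1 or 4. In skin, Ccl8 was 5.79, 8.63 and 6.82 CPM in young, 32.1, 587 and 341 in vehicle and 97.6, 17.2 and 61.9 in ABT-737 libraries. Ccl12 was 0, 0.575 and 1.36 CPM in young, 4.39, 7.12 and 23.4 in vehicle and 2.34, 1.96 and 3.35 in ABT-737. Ccl2 was 0, 1.15 and 0.910 CPM in young, 9.67, 6.41 and 43.9 in vehicle and 3.89, 1.57 and 18.6 in ABT-737. These 3 rose with age (log2 5.48 ± 1.05, edgeR adjusted p = 0.0178, log2 3.93 ± 0.89, edgeR adjusted p = 0.0262 and log2 4.68 ± 1.32, edgeR adjusted p = 0.0481). Ccl7 missed the threshold by edgeR (log2 3.03 ± 1.21, edgeR adjusted p = 0.12), while DESeq2 called it. Among skins, the ABT-737 values of Ccl12 all lay below those of vehicle (log2 -2.19 ± 0.67, edgeR adjusted p = 0.475), and those of Ccl2 and Ccl8 overlapped the vehicle values. Liver held few reads of these genes, Ccl8 having 0 counts in young and ABT-737 livers and 1, 22 and 1 in vehicle livers.

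Xcl1, or lymphotactin, is made by activated CD8 T cells and NK cells and attracts cross-presenting dendritic cells. It was tested in lung, where it was 2.45, 0.695, 3.26 and 3.64 CPM in young, 10.7, 8.15 and 59.8 in vehicle and 1.93, 5.27 and 6.26 in ABT-737 libraries. Vehicle lungs lay above young and ABT-737 lungs, with replicate 5 the highest by far. The age difference passed (log2 3.34 ± 0.70, edgeR adjusted p = 0.00766) but not without vehicle replicate 5. By edgeR the drug difference passed with the replicate block (edgeR adjusted p = 0.0132) but not without it (log2 -2.54 ± 0.74, edgeR adjusted p = 0.134). DESeq2 called it without a block.

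The neutrophil attractants grouped here as Cxcr2 ligands were mostly at a few counts. Cxcl15 in lung was 1749, 1655, 1452 and 1691 CPM in young, 679, 791 and 418 in vehicle and 1011, 1073 and 435 in ABT-737 libraries. It fell with age in lung (log2 -1.38 ± 0.36, edgeR adjusted p = 0.0239), each vehicle lung lying below each young one, and this call held in 4 of 10 fits that left out a library. Cxcl5, an epithelial ligand of Cxcr2, had 3 counts over the young lungs and 31 over the vehicle lungs, a ratio of 11.5-fold (95% exact counting interval 3.59 to 58.9) with edgeR adjusted p = 0.0109. The ABT-737 lungs, at 9.02, 8.43 and 3.58 CPM, overlapped vehicle at 6.04, 3.43 and 5.24. Cxcl1 in liver was 13.6, 13.4, 18.4 and 15.3 CPM in young, 0, 69.1 and 66.8 in vehicle and 27.7, 0 and 9.90 in ABT-737 libraries. It passed with age (log2 1.81 ± 0.58, edgeR adjusted p = 0.0338), though vehicle replicate 3 had 0 counts and the call held in 4 of 10 fits with a library left out. In skin, vehicle replicate 5 alone held 365 of the 365 vehicle counts of Cxcl2 and 199 of the 206 of Ccl4, both untested there. That skin also held neutrophil markers, 8 of 8 detected in the vehicle group, at 335 CPM against 3.08 and 12.1 in the other vehicle skins, and their part in the result was not tested.

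Lymphoid and stromal ligands differed among themselves. Cxcl13, which guides B cells into follicles through Cxcr5, was 5.40, 4.17, 3.80 and 2.08 CPM in young, 47.0, 105 and 175 in vehicle and 14.2, 269 and 98.9 in ABT-737 lungs. Vehicle and ABT-737 lungs both lay above all young ones, and Cxcl13 passed against young in each (vehicle log2 4.80 ± 0.78, edgeR adjusted p = 0.00306, ABT-737 edgeR adjusted p = 0.0231). ABT-737 minus vehicle was log2 0.19 ± 0.67, edgeR adjusted p = 0.907. B cell markers in the same lungs summed to 107 to 170.0 CPM in young, 314 to 614 in vehicle and 107 to 533 in ABT-737, 7 of 7 being detected in young and ABT-737 lungs and all but Pax5 in vehicle lungs, and their part in the result was not tested. In skin Cxcl13 was 0, 0 and 1.82 CPM in young, 2.20, 60.9 and 18.2 in vehicle and 5.45, 3.53 and 4.27 in ABT-737, higher with age (log2 5.13 ± 1.30, edgeR adjusted p = 0.0356) in 3 of 9 fits with a library left out. Untested in liver, it had 1, 8 and 50 counts in vehicle livers, 1 in all young livers and 0 in ABT-737 livers.

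Cxcl12 in lung was 37.3, 39.6, 33.1 and 41.6 CPM in young, 47.6, 126 and 230.0 in vehicle and 50.2, 111 and 71.1 in ABT-737 libraries. In skin it was 34.0, 45.5 and 43.2 CPM in young, 138, 265 and 321 in vehicle and 137, 70.5 and 145 in ABT-737. It rose with age in both (log2 1.83 ± 0.41, edgeR adjusted p = 0.0113 and log2 2.56 ± 0.38, edgeR adjusted p = 0.0112), and the ABT-737 skins remained above the young ones (log2 1.52 ± 0.36, edgeR adjusted p = 0.0464). In kidney it was 133, 132, 184 and 154 CPM in young, 199, 198 and 185 in vehicle and 147, 179 and 169 in ABT-737, with a difference that did not pass (log2 0.36 ± 0.15, edgeR adjusted p = 0.112). In liver it was 147, 149, 175 and 136 CPM in young, 17.5, 96.0 and 208 in vehicle and 111, 106 and 91.6 in ABT-737, where vehicle replicate 3 was the lowest of all livers (log2 -0.38 ± 0.39, edgeR adjusted p = 0.531). The Ccl21 genes, ligands of Ccr7 that bring T cells and dendritic cells into lymph vessels and nodes, did not pass in any comparison within a tissue. Ccl21b and Ccl21c had identical counts in 10 of 10 kidney libraries and 9 of 10 lung libraries, so their reads cannot be told apart. Their kidney values were 7.72, 7.72, 9.66 and 7.85 CPM in young, 11.4, 11.6 and 7.04 in vehicle and 3.08, 6.43 and 5.19 in ABT-737 (log2 -1.01 ± 0.34, edgeR adjusted p = 0.163 for ABT-737 minus vehicle), with all ABT-737 kidneys below all vehicle kidneys.

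Cxcl14, which is made by epithelium and fibroblasts and attracts myeloid cells, differed between tissues. In lung it was 349, 427, 452 and 327 CPM in young, 121, 93.1 and 84.2 in vehicle and 162, 90.6 and 91.3 in ABT-737 libraries. All old lungs, vehicle or ABT-737, lay below all young ones (vehicle minus young log2 -1.97 ± 0.30, edgeR adjusted p = 0.00259, ABT-737 minus young log2 -1.76 ± 0.29, edgeR adjusted p = 0.0231). Old lungs overlapped between treatments (log2 0.21 ± 0.30, edgeR adjusted p = 0.768). Kidney was 77.6, 78.0, 84.9 and 82.6 CPM in young, 90.7, 131 and 80.8 in vehicle and 97.6, 55.4 and 86.7 in ABT-737, with overlapping groups. In liver it was 1.94, 1.49, 3.07 and 1.92 CPM in young, 4.36, 131 and 80.9 in vehicle and 11.9, 1.90 and 0 in ABT-737. Vehicle replicates 4 and 5 lay far above all other livers. Cxcl14 did not pass the count filter of the edgeR fit in liver, and DESeq2, run without that filter, called it for vehicle minus young (log2 5.04 ± 0.95, DESeq2 adjusted p = 8.4e-06, where 6 ligands and 7.74% of all genes were called) and for ABT-737 minus vehicle (log2 -4.25 ± 1.02, DESeq2 adjusted p = 0.00291, 4 ligands and 1.44%). Fibroblast markers, 5 of 6 detected in each liver group with Lum at 0, were also highest in replicates 4 and 5, at 52.4, 290.3 and 176 CPM in vehicle against 55.3 to 96.8 in young and 53.1 to 91.2 in ABT-737 livers. Their part in the result was not tested. In skin it was 257, 266 and 213 CPM in young, 292, 312 and 264 in vehicle and 335, 694 and 588 in ABT-737. The ABT-737 skins were the highest (log2 0.90 ± 0.27, edgeR adjusted p = 0.475 against vehicle, log2 1.13 ± 0.27, edgeR adjusted p = 0.0454 against young), the call against young holding in 2 of 9 fits with a library left out.

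In the fit over kidney, liver and lung, the differences between tissues in these changes were tested themselves. For vehicle minus young, Cxcl14 differed for kidney minus liver (log2 -4.96 ± 0.74, edgeR adjusted p = 0.000231), kidney minus lung (log2 2.27 ± 0.47, edgeR adjusted p = 0.00374) and liver minus lung (log2 7.23 ± 0.70, edgeR adjusted p = 3.71e-08). It was the only ligand of 32 tested to differ between kidney and liver, where 0.786% of all genes passed. Between kidney and lung 4 ligands passed (8.04% of all genes), the others being Cxcl9 (log2 -5.57 ± 1.13, edgeR adjusted p = 0.00292), Cxcl10 (log2 -4.36 ± 1.13, edgeR adjusted p = 0.0157) and Cx3cl1 (log2 1.41 ± 0.34, edgeR adjusted p = 0.0113). Between liver and lung 4 passed (11.4% of all genes), the others being Cxcl9 (log2 -4.68 ± 1.30, edgeR adjusted p = 0.0158), Cxcl10 (log2 -4.73 ± 1.43, edgeR adjusted p = 0.0248) and Cxcl12 (log2 -2.18 ± 0.55, edgeR adjusted p = 0.00807). Without lung vehicle replicate 5 this count was 1. With all libraries kept, the age rise of Cxcl9 and Cxcl10 was thus larger in lung than in kidney and liver. Against liver this did not hold for both ligands without lung vehicle replicate 5. For ABT-737 minus vehicle, Cxcl14 again differed, for kidney minus liver (log2 4.26 ± 0.83, edgeR adjusted p = 0.0212, with 0.0839% of all genes called) and liver minus lung (log2 -4.79 ± 0.82, edgeR adjusted p = 0.00513, with 0.29%). Between kidney and lung 0 ligands passed by edgeR where 0% of all genes did, 1 having an unadjusted p under 0.05. The kidney minus liver call was lost without kidney ABT-737 replicate 5, kidney vehicle replicate 5, liver ABT-737 replicate 4 or 5, or liver vehicle replicate 4. The liver minus lung call was lost without liver ABT-737 replicate 4.

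**Figure D4:**
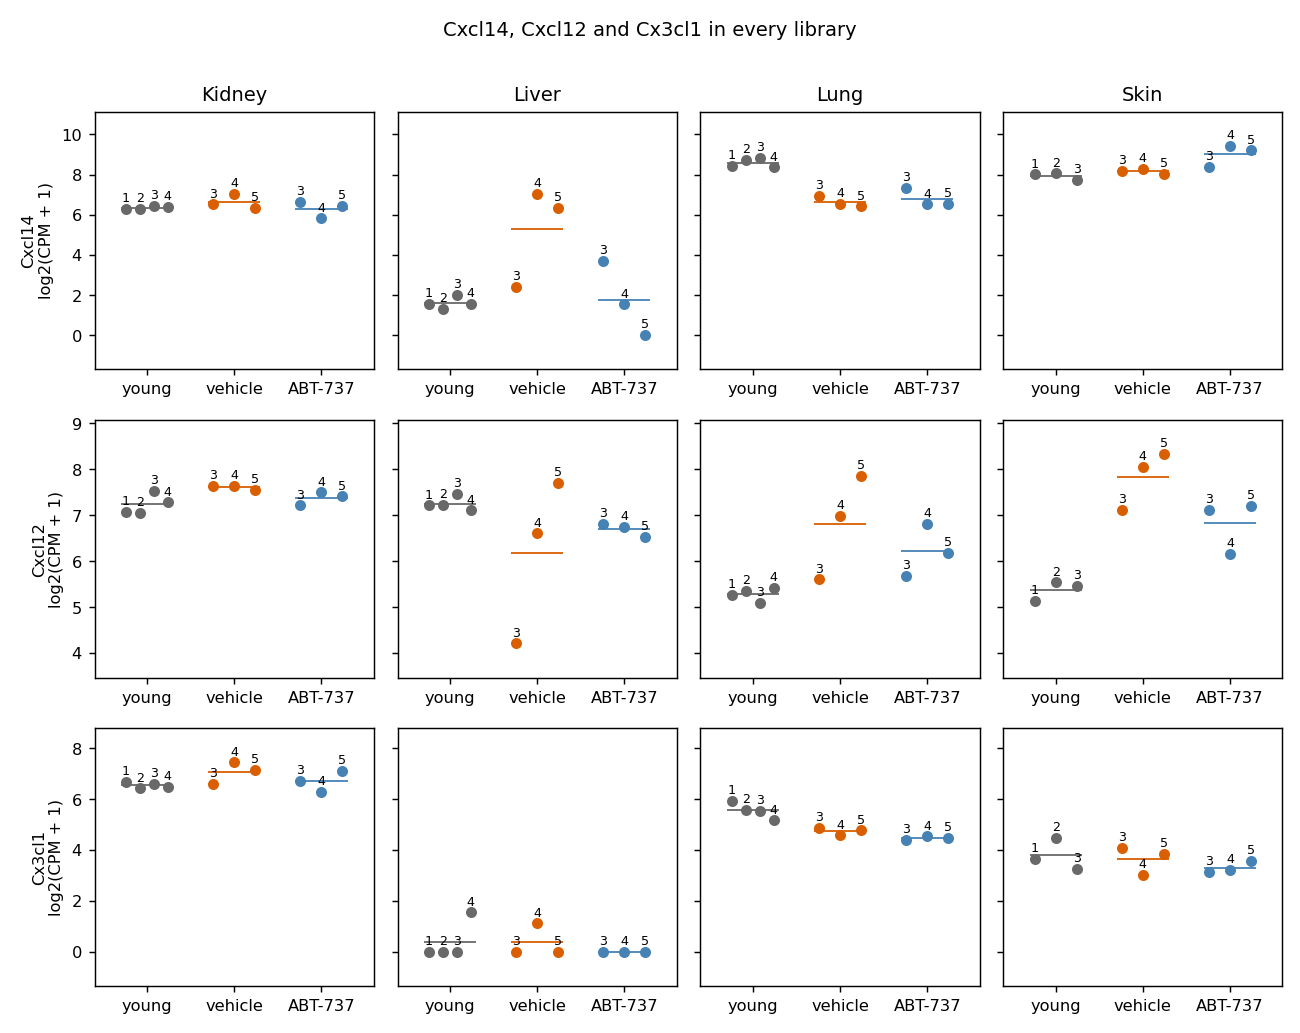
Cxcl14, Cxcl12 and Cx3cl1 in each library as log2(CPM + 1) by tissue and group, with points numbered by replicate and lines at the group means. Cxcl14 is lower in all old lungs than in all young lungs and high in 2 of 3 vehicle livers, Cxcl12 is higher in all vehicle than in all young lungs and skins, and Cx3cl1 is lower in all old lungs.

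Of the remaining epithelial ligands, Ccl20, which attracts Ccr6-bearing lymphocytes, had 3 counts over the young lungs and 71 over the vehicle lungs, a ratio of 26.4-fold (95% exact counting interval 8.67 to 131) with edgeR adjusted p = 0.00597. Its 12.1, 3.43 and 16.8 CPM with vehicle overlapped 3.86, 4.22 and 16.1 with ABT-737. Ccl27a, a skin-homing ligand of Ccr10 whose gene also yields transcripts in many tissues, was 682, 667 and 531 CPM in young, 355, 761 and 95.2 in vehicle and 841, 325 and 529.6 in ABT-737 skins and did not pass in any comparison within a tissue (smallest edgeR adjusted p = 0.423). In kidney it was 44.2, 42.7, 45.7 and 26.8 CPM in young and 47.9, 42.4 and 43.2 in vehicle libraries, in liver 31.0, 41.7, 29.2 and 30.7 and 43.6, 32.8 and 34.7, and in lung 21.1, 14.6, 13.6 and 14.6 and 18.8, 18.9 and 16.5. Ccl25, Ccl27b, Ccl28 and Cxcl17 also passed in no within-tissue comparison where they were tested. Ccl28, a mucosal ligand, was highest in kidney ABT-737 replicate 5 at 20.8 CPM, and the ABT-737 kidneys all lay above the vehicle ones (log2 0.93 ± 0.43, edgeR adjusted p = 0.326).

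Cx3cl1 and Cxcl16 are the ligands made as membrane-bound proteins, Cx3cl1 holding Cx3cr1-bearing monocytes and Cxcl16 holding Cxcr6-bearing T cells. Cx3cl1 in lung was 60.3, 46.6, 45.0 and 34.8 CPM in young, 28.2, 22.7 and 26.2 in vehicle and 20.0, 22.1 and 21.0 in ABT-737 libraries. Young lungs were all higher than old lungs of either treatment (log2 -0.86 ± 0.26, edgeR adjusted p = 0.0399 for vehicle, log2 -1.15 ± 0.27, edgeR adjusted p = 0.0413 for ABT-737 minus young), each call holding in 4 of 10 fits with a library left out. In the same lungs endothelial markers summed to 1145 to 1298 CPM in young, 334 to 985 in vehicle and 960.0 to 1490.0 in ABT-737, 6 of 6 being detected in each group, and their part in the result was not tested. The age call of Cx3cl1 was limited to lung. In kidney Cx3cl1 averaged 82.3 ± 6.38 CPM in young and 120 ± 32.1 in vehicle mice on the scale common to kidney, liver and lung, and it did not pass there. The age calls of Cxcl16 were rises, in kidney and liver. It was 87.9, 72.5, 82.0 and 97.4 CPM in young, 150.4, 135 and 122 in vehicle and 62.7, 69.3 and 106 in ABT-737 kidneys. In livers it was 7.74, 11.9, 20.0 and 13.4 CPM in young, 43.6, 42.1 and 30.8 in vehicle and 7.93, 9.48 and 22.3 in ABT-737. In lungs it was 106, 72.3, 119.9 and 148 CPM in young, 178, 166 and 289.9 in vehicle and 90.2, 114 and 179.9 in ABT-737. It rose in kidney (log2 0.68 ± 0.17, edgeR adjusted p = 0.0167) and liver (log2 1.48 ± 0.37, edgeR adjusted p = 0.00879). Its ABT-737 values lay below all vehicle values in both, without passing by edgeR (log2 -0.77 ± 0.19, edgeR adjusted p = 0.0618 and log2 -1.47 ± 0.44, edgeR adjusted p = 0.0727). DESeq2 called the kidney difference (adjusted p = 0.0241), 1 of 3 ligands it called there with 1.21% of all genes, and not the liver one (adjusted p = 0.204). The lung and skin differences did not pass (log2 0.92 ± 0.32, edgeR adjusted p = 0.0701 and log2 0.90 ± 0.45, edgeR adjusted p = 0.203).

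The Ccr3 and Ccr4 ligands Ccl11, Ccl17, Ccl22, Ccl24 and Ccl26, which attract eosinophils and type 2 T cells, passed in no within-tissue comparison by edgeR. Ccl17 in lung was 36.8, 27.8, 34.7 and 19.8 CPM in young, 23.5, 15.9 and 1.12 in vehicle and 32.8, 30.6 and 8.50 in ABT-737 libraries (log2 -1.20 ± 0.64, edgeR adjusted p = 0.224 for vehicle minus young). Ccl22 was 18.6, 13.2, 14.1 and 17.7 CPM in young, 10.7, 5.58 and 6.73 in vehicle and 8.37, 12.6 and 5.37 in ABT-737 (log2 -1.08 ± 0.37, edgeR adjusted p = 0.0694). For both the sign was negative, whereas 23 of the 28 lung ligands had a positive sign, and vehicle replicate 5 was the lowest lung for Ccl17. Ccl11, or eotaxin, was 2.17, 4.03 and 9.55 CPM in young, 18.9, 24.6 and 20.1 in vehicle and 13.8, 1.57 and 14.0 in ABT-737 skins (log2 1.93 ± 0.69, edgeR adjusted p = 0.0924 for vehicle minus young, which DESeq2 called). Ccl26 had 0 counts in all 39 libraries, and Ccl1, Ccl19, Cxcl2, Cxcl3, Cxcl11 and the 2 pseudogenes likewise passed the edgeR count filter in no tissue. DESeq2, run without that filter, called 2 of these higher in vehicle than in young lungs. They were Ccl19 (log2 3.73 ± 1.24, DESeq2 adjusted p = 0.0244) and Cxcl2 (log2 4.60 ± 1.50, DESeq2 adjusted p = 0.0214).

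Calls in lung turned on single libraries, so these were read one by one. Summed over all ligands, the young lungs held 2963 to 3265 CPM. The vehicle lungs held 4397, 5765 and 12522 CPM and the ABT-737 lungs 2457, 3954 and 4040.0. Replicate 5 was the highest of its group for 15 of 28 ligands in vehicle, against 35.1% of all genes, and for 15 of 28 in ABT-737, against 36.0%. Vehicle and ABT-737 lungs of the same number deviated together (r = 0.211, 0.300 and 0.460 for numbers 3, 4 and 5 over 7397 genes). Lungs of unlike number ran from r = -0.615 (vehicle 4 with ABT-737 5) to 0.368 (vehicle 4 with ABT-737 3). The sample titles do not state that equal numbers pair mice. In skin, libraries of unlike number reached r = 0.826 (vehicle 4 with ABT-737 3), so such correlations cannot show a pairing. A fit with the number as a replicate block called 7 ligands lower with ABT-737 and none higher, against 7.31% of all genes called and 3.5% called lower.

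With this block, the calls in lung were Ccl5 (log2 -2.34, edgeR adjusted p = 0.00127), Cxcl9 (log2 -3.10, edgeR adjusted p = 0.00233), Ccl3 (log2 -2.69, edgeR adjusted p = 0.00599), Ccl4 (log2 -2.94, edgeR adjusted p = 0.00647), Cxcl10 (log2 -2.58, edgeR adjusted p = 0.00764), Xcl1 (log2 -2.44, edgeR adjusted p = 0.0132) and Ccl2 (log2 -2.11, edgeR adjusted p = 0.046). The ABT-737 lung lay below the vehicle lung of its number in 3 of 3 pairs for all of these but Ccl2, for which it did in 2 of 3. These ligands were picked by the paired fit on the same lungs, so the signs are no separate check. For Ccl5 and Xcl1 every ABT-737 lung lay below every vehicle lung, whatever the pairing. With the block over all 3 groups, or in a fit of the 2 groups alone, both added after seeing the data, 4 ligands passed. Without the block, leaving out ABT-737 replicate 5 gave 5 calls, Ccl5, Ccl3, Cxcl9, Ccl4 and Cxcl10. The shares of all genes called in these added fits are not reported here. Macrophage markers in the lungs summed to 1178 to 1523 CPM in young, 3466 to 7203 in vehicle and 1523 to 4061 in ABT-737 lungs, and T cell markers to 98.7 to 145 CPM in young, 537 to 1840.0 in vehicle and 166 to 454 in ABT-737. Markers of cytotoxic lymphocytes summed to 75.8 to 103 CPM in young, 351 to 2406 in vehicle and 108 to 399.5 in ABT-737, with vehicle replicate 5 the highest lung for all 3 lists. Their part in the ligand values was not tested.

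**Figure D5:**
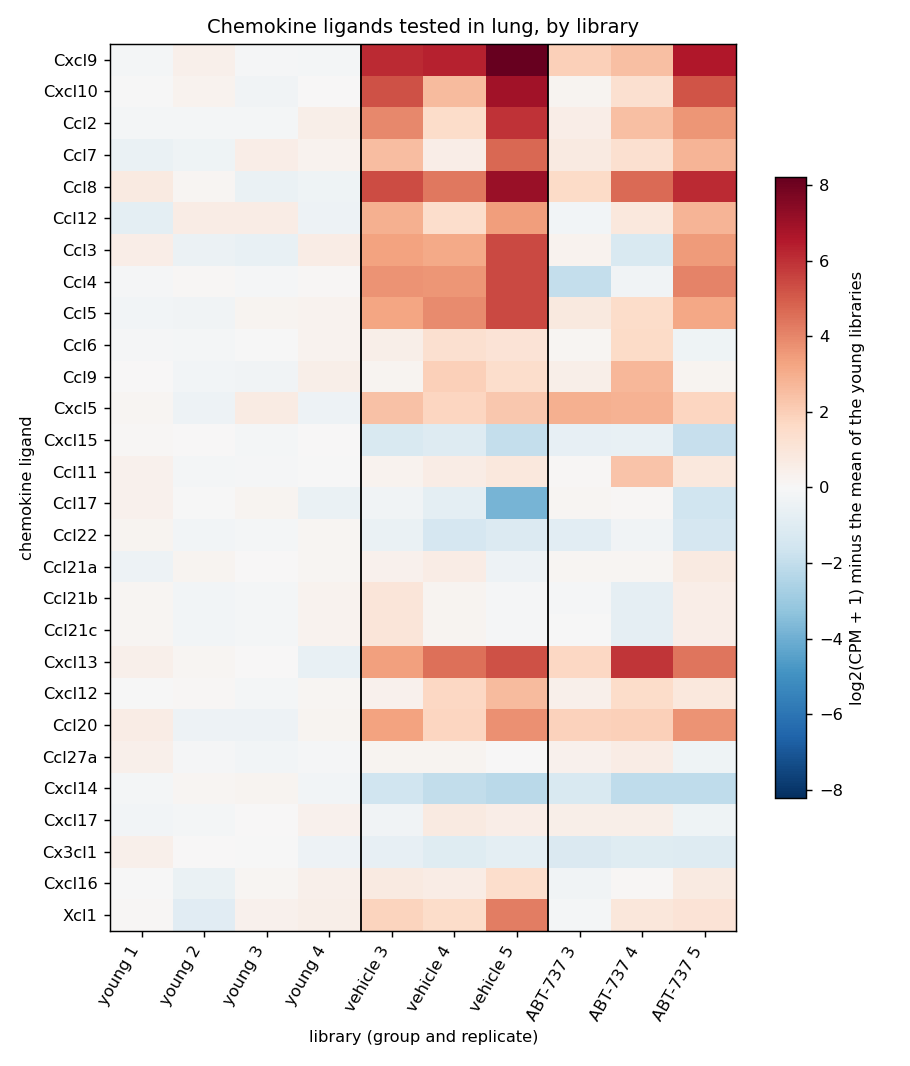
The ligands tested in lung, one row each, in each lung library, coloured by log2(CPM + 1) minus the mean of the young lungs. The columns of vehicle replicate 5 and ABT-737 replicate 5 are high for the interferon- and T cell-linked ligands, and ABT-737 replicates 3 and 4 are paler, as with Cxcl9 at 12.2 and 17.9 CPM against 316.

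Against young mice, fewer ligands passed for ABT-737 mice than for vehicle mice. Ccl5 alone passed in kidney (1 of 17, 2.12% of all genes called), 2 without young replicate 3, and Ccl5 higher and Ccl9 lower in liver (2 of 8, 8.4%). In lung Cxcl13, Ccl8, Cxcl9, Cxcl5 and Ccl20 were higher and Cxcl14 and Cx3cl1 lower (7 of 28, 2.55%). In skin Cxcl14 and Cxcl12 were higher (2 of 22, 5.17%), with 0 left when ABT-737 replicate 4 or 5, vehicle replicate 4 or any young skin was dropped. In lung Ccl8 (log2 5.21 ± 0.92, edgeR adjusted p = 0.0231) and Cxcl9 (log2 5.59 ± 1.07, edgeR adjusted p = 0.0263) were called with every ABT-737 lung above every young one. No lung ligand passed without any 1 of the young libraries, 2 did so once ABT-737 replicate 5 was dropped, and 10 once ABT-737 replicate 4 or vehicle replicate 4 or 5 was. The liver calls were 0 without ABT-737 replicate 3 or 5 or young replicate 2 or 3, and 1 without ABT-737 replicate 4 or young replicate 1. These comparisons share their young libraries with those of vehicle mice.

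The receptors and inducers of these ligands were read beside them, from lists chosen with results of these data known. The filter on low counts applies to these lists as to the ligands, so a gene counted only in old mice enters already high. The share of tested genes that rose is therefore no measure of the whole list. Of 19 chemokine receptor genes 2 were tested in kidney and both rose with age (all genes 7.75% called higher), Cxcr3 (log2 2.75 ± 0.42, adjusted p = 0.00032) and Cxcr4 (log2 1.50 ± 0.47, adjusted p = 0.0409). In lung 5 of 9 tested rose and 0 fell (8.15% of all genes called higher), among them Cxcr3 (log2 3.74 ± 0.63, adjusted p = 0.00316), the receptor of Cxcl9 and Cxcl10, and Cxcr5 (log2 2.02 ± 0.48, adjusted p = 0.0148), that of Cxcl13. In skin 2 were tested and neither passed, and in liver none of the 19 could be tested. Between ABT-737 and vehicle 0 of 2 receptors passed by edgeR in kidney (1 at an unadjusted p under 0.05 and 1 by DESeq2). In lung 0 of 9 did by edgeR (1 at an unadjusted p under 0.05 and 0 by DESeq2), and in skin 0 of 2 (0 at an unadjusted p under 0.05 and 0 by DESeq2). Of the atypical receptors, which take up ligands without signalling through G proteins, Ackr3 (log2 1.29 ± 0.20, adjusted p = 0.000444), which binds Cxcl12, and Ccrl2 rose with age in kidney, 2 of 2 tested against the same 7.75% of all genes. By edgeR 0 of 4 passed in lung (1 at an unadjusted p under 0.05 and 2 by DESeq2) and 0 of 5 in skin (2 at an unadjusted p under 0.05 and 0 by DESeq2). The platelet chemokines Pf4 and Ppbp, whose symbols fall outside the rule, rose with age in kidney and lung (Ppbp log2 3.31 ± 0.61, adjusted p = 0.00129 in kidney and log2 2.26 ± 0.50, adjusted p = 0.0109 in lung) and Pf4 in skin (log2 2.31 ± 0.54, adjusted p = 0.0292), and neither passed between ABT-737 and vehicle.

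Interferon-gamma target genes outside the ligand family rose with age in 14 of 14 tested in lung, 12 of 12 in kidney, 5 of 7 in liver and 4 of 10 in skin. Over all genes, 8.15%, 7.75%, 11.7% and 5.84% were called higher in these tissues. Here too a gene counted only in old mice enters the test already high. With ABT-737, 11 of 12 fell in kidney (1.21% of all genes called lower) and 5 of 7 in liver (2.85%). Tap1, which supplies peptides to MHC class I, fell in both (kidney log2 -2.04 ± 0.20, adjusted p = 6.34e-05, liver log2 -1.84 ± 0.33, adjusted p = 0.00438). With ABT-737 0 of 14 were called by edgeR in lung (9 at an unadjusted p under 0.05 and 2 by DESeq2, 11 lower with the replicate block where 3.5% of all genes were) and 0 of 10 in skin (9 at an unadjusted p under 0.05 and 2 by DESeq2). Ifng itself rose with age in lung (log2 5.02 ± 0.96, adjusted p = 0.00526). NF-kappa-B targets rose with age in 6 of 10 tested in lung, 5 of 9 in kidney, 3 of 3 in liver and 2 of 9 in skin, beside the same shares of all genes, 8.15%, 7.75%, 11.7% and 5.84%. Icam1 in liver was the 1 target that fell with ABT-737 in the unpaired fits (log2 -2.09 ± 0.51, adjusted p = 0.0295), where 2.85% of all genes did, and 5 of 10 fell in lung with the replicate block (3.5% of all genes).

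Of the leukocyte marker lists, T cell sums were higher in every vehicle library than in any young or ABT-737 library of the same tissue, and macrophage sums were so in kidney, liver and skin but overlapped between vehicle and ABT-737 in lung. B cell sums overlapped between vehicle and ABT-737 in all 4 tissues, in kidney at 2.63 to 4.62 CPM in young, 8.64 to 93.7 in vehicle and 7.42 to 25.4 in ABT-737, 5 to 6 of 7 genes being detected. In kidney, T cell markers, 10 of 10 detected in each group, summed to 12.5 to 15.5 CPM in young, 76.2 to 114 in vehicle and 13.9 to 32.2 in ABT-737. Macrophage markers, 10 detected of 11 listed, summed to 230.1 to 306 CPM in young, 840.0 to 1424 in vehicle and 342 to 575 in ABT-737. In liver T cell markers summed to 2.98 to 10.8 CPM in young, 56.7 to 108 in vehicle and 7.59 to 12.4 in ABT-737, with Cd2, Cd28, Cd3g, Cd5 and Cd8b1 at 0 in young and Cd28, Cd3e, Cd3g and Cd8a at 0 in ABT-737 livers. Liver macrophage markers summed to 325 to 457 CPM in young, 1811 to 1942 in vehicle and 248 to 535 in ABT-737. In skin T cell markers summed to 7.24 to 12.7 CPM in young, 35.1 to 77.5 in vehicle and 15.7 to 33.2 in ABT-737 and macrophage markers to 232 to 737 CPM in young, 1579 to 3765 in vehicle and 609 to 1319 in ABT-737. In kidney and liver the vehicle sums of both lists lay above all young and ABT-737 sums, as Ccl5 and Cxcl10 did, and their part in the ligand values was not tested.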

How the data were processed

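Kidney, liver, lung and skin of Prf1-/- mice were profiled in 39 libraries. The authors deposited raw counts per gene, and their processing notes name bcl2fastq, HISAT 0.1.5, HOMER and mm10. Whether reads were collapsed by molecular barcode and whether counting used strand is not given in the sources used here, so intervals cover counting error only. The skin table was counted separately, on gene models that end 1900 to 2100 bases beyond those of the other table for 29 of 37 ligands compared, so levels were not compared between the tables. Groups come from the sample titles, since the treatment labels of ABT-737 replicates 4 and 5 carry other compound numbers.

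Within each tissue, genes were filtered by filterByExpr, scaled by TMM and fitted over the 3 groups with edgeR 4.0.16 in R 4.3.3 (quasi-likelihood test, Benjamini-Hochberg adjusted p under 0.05 over all genes tested). Kidney, liver and lung were also fitted together for contrasts between tissues, with libraries treated as independent although tissues of the same number may come from 1 mouse. Alternatives were DESeq2 1.42.0, no filter beyond 1 count, the DESeq2 size factors used in edgeR, only the 2 groups compared, a replicate block and leaving out each library. The fitting code was tested on simulated data. The edgeR p-values set each difference against a spread between libraries that was estimated over all groups of the fit and moderated across genes.

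The replicate numbers 3, 4 and 5 are shared by vehicle and ABT-737. No sample title states that equal numbers pair mice, and the numbers were used as pairs in lung only. There same-numbered libraries deviated together with r of 0.211, 0.300 and 0.460, while libraries of unlike number ran from -0.615 to 0.368. This choice came from these same data, and the paired lung calls depend on it. Libraries of unlike number reached 0.826 in skin and 0.435 in kidney, so the lung correlations do not establish the pairing. The numbers were not taken to pair the samples in kidney (-0.279, -0.278 and 0.0745), liver (-0.0479, 0.162 and -0.0455) or skin (-0.681, -0.694 and 0.289).

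The ligands and gene lists were chosen with earlier results of these data known. Values of single libraries are given for ligands called with age or ABT-737 in any tissue, for Ccl2, Ccl5, Cxcl9 and Cxcl10, and for those tested in all 4 tissues. Per tissue they are also given for the 5 with the smallest p for ABT-737 minus vehicle and the 3 for vehicle minus young. They do not cover every tissue in which a ligand was tested or, for some ligands, every group. Ccl11, Ccl17, Ccl22, Ccl28, Cxcl11 and the ligands named at low counts outside this rule were chosen after their values were seen. Outside the family, up to 4 passing genes per list are named. A fold against a group without counts uses a floor of 3 counts per library. Promoter sequences are those of RefSeq on GRCm38.p6, matched by symbol for 28 ligands. Some genes of the comparison lists are counted but not reported by name here.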

Additional observations from a re-analysis of the deposited data

Results flagged for a closer look

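In groups of 4 libraries, a library standing far from the other 3 was looked for by the gap to its neighbour as a share of the group's range (Dixon's test at 95%). Chance flags about 1 in 20 groups, and 6 of 41 groups examined were marked. They were Ccl21b and Ccl21c in young kidney, both with replicate 3 highest (0.933 and 0.933), Ccl27a in young kidney with replicate 4 lowest (0.844), Ccl27a in young liver with replicate 2 highest (0.857), Ccl27a in young lung with replicate 1 highest (0.862) and Cxcl10 in young liver with replicate 3 highest (0.832). Ccl21b and Ccl21c have the same counts in kidney and are therefore 1 observation.

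The change of 5 ligands differed between tissues in the tests of the difference itself. For Cxcl14 the ABT-737 minus vehicle change differed by log2 4.26 for kidney minus liver and by -4.79 for liver minus lung. The vehicle minus young change of Cxcl14 differed by -4.96 for kidney minus liver, 2.27 for kidney minus lung and 7.23 for liver minus lung. That of Cxcl9 differed by -5.57 for kidney minus lung and -4.68 for liver minus lung, that of Cxcl10 by -4.36 and -4.73, that of Cx3cl1 by 1.41 for kidney minus lung and that of Cxcl12 by -2.18 for liver minus lung. The Cxcl14 values involving liver rest on vehicle replicates 4 and 5, at 131 and 80.9 CPM, with replicate 3 at 4.36 CPM.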

How the results depend on the processing

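Counts of ligands called changed with the processing as follows. Except where a percentage is given, shares of all genes called under these settings are not reported here. Such counts therefore do not show whether the ligands changed more than other genes. With DESeq2, 2 ligands were called in lung (1.86% of all genes) and 1 in skin (0.2%) for ABT-737 minus vehicle. It called 13 in skin for vehicle minus young, among them Cxcl9, Cxcl10, Ccl7 and Ccl11, and 5 in skin for ABT-737 minus young. With its size factors in edgeR the last was 1. Below the edgeR count filter, DESeq2 called for vehicle minus young Ccl12 and Cxcl13 in kidney, Ccl4 and Cxcl14 in liver, Ccl19, Cxcl1 and Cxcl2 in lung and Ccl3 in skin. With no filter beyond 1 count, ABT-737 minus vehicle gave 9 ligands in liver, 2 in lung and 1 in skin, vehicle minus young gave 16 in skin, 13 in kidney and 10 in liver, ABT-737 minus young gave 2 in kidney, 11 in lung and 6 in skin, and the differences between tissues gave 7 (vehicle minus young, kidney minus lung) and 2 (ABT-737 minus vehicle, liver minus lung). The cause of these changes was not tested.

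With the replicate block, 7 ligands were called in lung for ABT-737 minus vehicle, and 4 with the block over all 3 groups or in the 2 groups alone. The latter fits gave 1 and 1 in liver. Where the numbers were not taken to pair the samples, the block gave 9 ligands in lung, 5 in kidney, 2 in liver and 0 in skin for vehicle minus young, and 0 in each tissue for ABT-737 minus young.

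Leaving out 1 library gave, for ABT-737 minus vehicle, 0 to 5 ligands in lung, 1 to 7 in liver, 2 to 3 in kidney and 0 to 0 in skin. In that order, vehicle minus young gave 10 to 22, 4 to 7, 6 to 9 and 0 to 9, and ABT-737 minus young 0 to 10, 0 to 2, 1 to 2 and 0 to 3. The differences between tissues ranged from 0 to 2 ligands for ABT-737 minus vehicle (kidney minus liver 0 to 1, kidney minus lung 0 to 2, the 2 without lung ABT-737 replicate 5, liver minus lung 0 to 1) and from 1 to 5 for vehicle minus young (1 to 1, 3 to 5 and 1 to 5), and the contrasts of young tissues gave 9 to 10, 19 to 21 and 19 to 21. The direction of 1 value turned, Ccl2 in skin for ABT-737 minus vehicle, at 0.0156 without vehicle replicate 5, the range over libraries left out being -2.82 to 0.0156. Liver depth, at 3.51 to 13.1 CPM for 3 counts, limits what could be detected there.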
